A study of Homo sapiens with 32 samples.

Results

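The hairpins mir-221 and mir-222 were followed across 32 small RNA libraries as 2 of the 1513 miRNA precursor rows of the deposited table. They were taken by name, and each name had 1 row. The libraries came from 8 clones of 293T (CRL-3216), an established line of human embryonic kidney cells expressing SV40 large T antigen. Clones 52, 55, 57 and 67 were wild type for DGCR8, and clones 30, 34, 42 and 43 had the genotype DGCR8 delta103-126Q, made by prime editing to remove the reported ERH binding site. Every clone received 4 shRNA vectors by transient transfection, 2 of them non-targeting (control shRNA 1 and 2) and 2 against ERH (ERH shRNA 1 and 2). All cells were selected with puromycin and sorted on day 5 for a vector-encoded fluorescent marker. The 4 conditions below are therefore wild type or deletion, each with control or ERH shRNAs, with 4 clones per condition and the clone as the replicate. A difference between genotypes is thus also a difference between sets of clones.

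DROSHA and its RNA-binding partner DGCR8 make up the Microprocessor complex, and its cut in the nucleus frees a miRNA hairpin from the primary transcript. ERH is a small nuclear protein that binds the N-terminus of DGCR8 and is known for helping the cutting of poor hairpins that have a good neighbour in the same transcript. The hairpins mir-221 and mir-222 are neighbours in 1 transcript, and which of them, if either, is a poor substrate was not measured here. Their main products, miR-221-3p and miR-222-3p, share a seed, the bases that pair with target mRNAs. They are known for lowering the cell cycle inhibitor CDKN1B and the receptor KIT, and for high levels in many proliferating and tumour cells.

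The mature sequences are shown because the 3p products make the members a seed family, with the seed (bases 2 to 8) in capitals. They are credited to RefSeq (GRCh38.p14), which matched both members but had no entry for a 5p product of MIR221. The seed of miR-222-5p differs from that of the 3p products.
hsa-miR-221-3p: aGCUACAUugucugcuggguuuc
hsa-miR-222-3p: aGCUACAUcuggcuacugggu
hsa-miR-222-5p: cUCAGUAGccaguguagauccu
The leading 8 bases of both 3p products were identical. Of 2545 mature sequences in the RefSeq table, the 2 members alone carried this seed, and 1 more, miR-187-5p, shared bases 2 to 7. The deposited rows hold the reads of a whole hairpin, so the 3p and 5p arms were not measured apart.

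Both hairpins lie on the minus strand of chromosome X (GRCh38) in an intron of the long non-coding RNA MIR222HG. The intron runs from 45746101 to 45769785 between exons 2 and 1 of transcript MIR222HG-201 in GENCODE release 29. The mir-222 hairpin, at 45747015 to 45747124, is transcribed first and lies 22661 bases from exon 1. The mir-221 hairpin follows at 45746157 to 45746266, after 748 bases, and ends 56 bases before exon 2. No other RefSeq hairpin lay within 10 kb on this chromosome. The hairpins are shown 5′ to 3′ because their predicted folds are compared, with the 3p product in capitals.
MIR222: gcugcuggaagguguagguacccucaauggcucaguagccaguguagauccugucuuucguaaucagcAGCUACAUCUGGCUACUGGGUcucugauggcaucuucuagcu
MIR221: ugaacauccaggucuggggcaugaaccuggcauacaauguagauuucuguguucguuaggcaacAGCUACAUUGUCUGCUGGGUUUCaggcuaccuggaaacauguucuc
Each was 110 bases long, and RNAfold predicted 1 stem with 1 terminal loop for each. MIR222 had a predicted free energy of -53.8 kcal/mol with 38 base pairs and a loop of 11 bases, and MIR221 had -46.5 kcal/mol with 42 base pairs and a loop of 5 bases. GC content was 50.9% in MIR222 and 47.3% in MIR221. These are predictions for isolated RNAs without their flanks.

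Library totals over miRNA rows lay between 1318923 and 6222790 counts, and the 4 spike-in RNAs, mixed into equal amounts of RNA from every sample, gave 9139 to 33090 counts. Depth did not limit the members, with 29610 to 141065 counts for mir-221 and 4817 to 21553 for mir-222 per library. Of 15 miRNAs that mark blood, endothelium, liver, muscle, fibroblasts, neurons or pluripotent cells, 6 had means under 10 CPM (counts scaled to library size, here by the trimmed mean of M-values, TMM) and mir-367 had 0 counts in all libraries. The neuronal mir-9 (mean 6012 CPM) and the endothelial mir-126 (mean 4494 CPM) were abundant. The other neuronal marker, mir-124 (10.3 CPM), and the epithelial mir-200c (50.7 CPM) and mir-141 (106 CPM) were low. The summed marker level was 9810 to 20209 CPM in wild-type libraries with control shRNAs and 5367 to 15394 CPM with ERH shRNAs. In deletion libraries it was 6367 to 18562 and 5037 to 13145 CPM. The blood markers mir-223, mir-142, mir-150 and mir-451a summed to 191 to 428 CPM in wild-type and 163 to 3603 CPM in deletion libraries with control shRNAs, and to 92.4 to 583 and 155 to 1294 CPM with ERH shRNAs. Clone 30 was highest, at 844 to 3603 CPM. With knockdown in all clones 6 of the 12 markers tested were called lower and 0 higher (edgeR). Of all rows tested 16.5% were called lower and 20.1% higher. Among the 258 rows with a mean of at least 100 counts these shares were 30.6% and 21.3%. The part of these markers in the results below was not tested. Neither the level of ERH nor the edited DGCR8 sequence was analysed here, and the labels stand unchecked in that respect.

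The hairpin mir-221 was among the most abundant miRNAs of these cells. Its mean over the 32 libraries was 28824 ± 9226 CPM (SD), the 9th highest of the 1513 rows, between mir-10a and mir-218. The row mir-222 was 42nd, at 4699 ± 1729 CPM (SD), between mir-18a and mir-340. The mature products are of near-equal length, yet library preparation favours some ends over others, so the 2 levels are compared as deposited counts.

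In wild-type clones with control shRNAs, mir-221 stood at 38764 CPM in clone 52, 34941 in clone 55, 39032 in clone 57 and 45112 in clone 67 (sums of both control libraries). With ERH shRNAs the same clones had 34167, 24860, 25182 and 26010 CPM. All 4 clones were lower with ERH shRNAs, and the highest ERH value lay under the lowest control value. In deletion clones with control shRNAs mir-221 was at 25169 CPM in clone 30, 17476 in clone 34, 36533 in clone 42 and 24273 in clone 43. With ERH shRNAs these clones had 23786, 13036, 34118 and 20002 CPM. Clone 42 was highest and clone 34 lowest in both arms, and the range over these clones was 2.09-fold with control and 2.62-fold with ERH shRNAs, against 1.29-fold and 1.37-fold over the wild-type clones. Across conditions mir-221 averaged 39462 ± 4204 CPM in wild type with control shRNAs, 27555 ± 4435 in wild type with ERH shRNAs, 25863 ± 7899 in deletion with control shRNAs and 22735 ± 8798 in deletion with ERH shRNAs (SD, n = 4 each). In this order the first and second did not overlap, while the second overlapped the third and the third the fourth.

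The row mir-222 followed the same order with more overlap. In wild-type clones with control shRNAs it was at 5483 CPM in clone 52, 5170 in clone 55, 7184 in clone 57 and 6883 in clone 67. With ERH shRNAs it was at 6121, 3890, 3939 and 3735 CPM. Clone 52 was the exception, higher with ERH shRNAs, and it made the arms overlap. In single libraries of clone 52 this rise came with shRNA 2 only, at 6382 CPM with ERH against 4586 with control shRNA 2. With shRNA 1 mir-222 was lower, at 5457 CPM with ERH against 7045 with control. In deletion clones with control shRNAs mir-222 was at 3628 CPM in clone 30, 2744 in clone 34, 7278 in clone 42 and 3779 in clone 43. With ERH shRNAs these were 3966, 2134, 6344 and 3196 CPM, lower in 3 of 4 clones. The condition means were 6180 ± 1002, 4421 ± 1136, 4357 ± 2000 and 3910 ± 1788 CPM (SD, n = 4), in the order given for mir-221, and neighbours overlapped throughout.

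**Figure D1:**
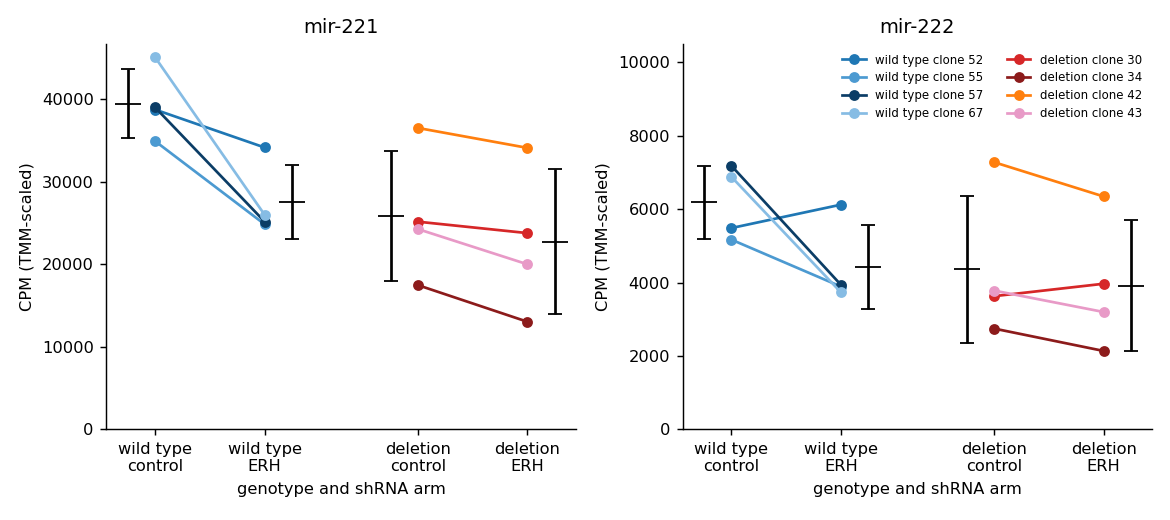
Levels of mir-221 (left) and mir-222 (right) in TMM-scaled CPM for each clone under control and ERH shRNAs, with lines joining the arms of a clone and black marks for mean ± SD (n = 4). The mir-221 lines fall in all 8 clones, and in the deletion clones the spread between clones is wider than any fall.

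Knockdown of ERH was tested within the 8 clones. On the TMM scale both members fell, mir-221 by a log2 value of -0.37 ± 0.098 (SE, adjusted p = 0.00537 by edgeR's quasi-likelihood test over 667 rows) and mir-222 with -0.33 ± 0.12 (SE, adjusted p = 0.0318 by edgeR). The median of all rows was 0.061, and 16.5% of all rows were called lower. Among the 258 rows with a mean of at least 100 counts, the median was -0.15 and 30.6% were called lower. The members ranked 126th and 150th from the lowest of 667 log2 fold changes, below the lower quartile of -0.30. In single clones mir-221 was lower in 8 of 8, between -0.79 and -0.082, and mir-222 in 6 of 8, between -0.88 and 0.16. The calls did not hold on other scales. With scaling by total miRNA counts the changes were -0.099 (adjusted p = 0.384 by edgeR) and -0.061 (adjusted p = 0.713 by edgeR). With spike-in scaling they turned positive, at 0.088 (adjusted p = 0.668 by edgeR) and 0.13 (adjusted p = 0.494 by edgeR). Each scale also moved the median of all rows, to 0.33 with total miRNA and 0.52 with spike-in scaling, where 210 rows were called higher and 36 lower, and 233 higher and 22 lower (134 and 110 on the TMM scale). Relative to the median of all rows, mir-221 lay at -0.43 and mir-222 at -0.39 on each of the TMM, total miRNA and spike-in scales. A change of scale moves all rows by nearly the same amount, so this likeness was largely fixed in advance and is no support. Without the clone block the values were alike, -0.37 and -0.33, and neither passed (adjusted p = 0.251 and 0.340 by edgeR). The mir-222 call was also lost without clone 43, 55 or 57, with adjusted p of 0.0533, 0.0664 and 0.0756 by edgeR.

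The TMM factors differed between conditions. The scaled library size was 0.73 to 0.83 of the miRNA total in wild-type clones with control shRNAs, 0.95 to 1.08 with ERH shRNAs, and 0.93 to 1.15 and 1.11 to 1.33 in deletion clones. As a share of all miRNA counts, mir-221 took 3.09% ± 0.39 in wild type with control shRNAs and 2.80% ± 0.60 with ERH shRNAs, then 2.73% ± 0.86 and 2.68% ± 0.93 in deletion clones (SD, n = 4). The shares of mir-222 were 0.482% ± 0.066, 0.451% ± 0.142, 0.462% ± 0.222 and 0.461% ± 0.194 (SD, n = 4). In these shares all 4 conditions overlapped for both members. Relative to spike-in RNA, a measure of amount per total RNA, the difference with ERH shRNAs was 0.089 ± 0.31 for mir-221 (log2, SD, n = 8, 95% interval -0.17 to 0.40) and 0.13 ± 0.17 for mir-222 (SD, n = 8, 95% interval -0.022 to 0.29). Neither passed (exact sign-flip permutation tests, two-sided, p = 0.445 and 0.0859, adjusted p = 0.838 and 0.688 over 24 tests), and mir-221 was higher in 3 of 8 clones and mir-222 in 6 of 8. The intervals hold the shifts that the exact test did not reject.

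**Figure D2:**
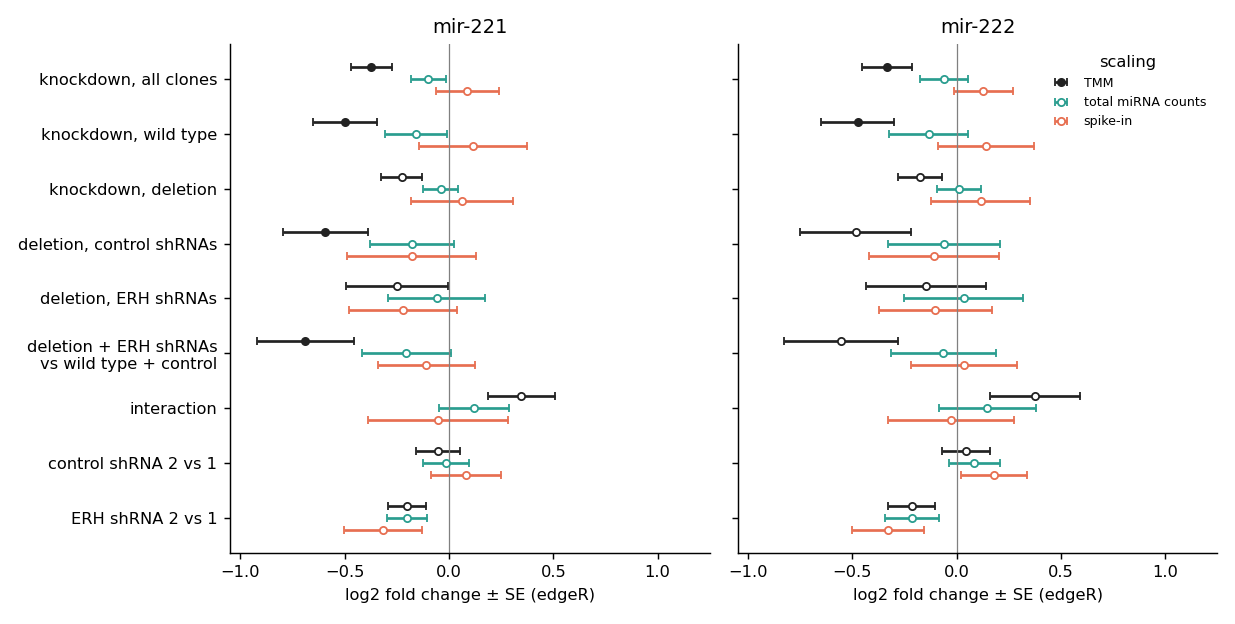
Log2 fold changes ± SE of mir-221 (left) and mir-222 (right) in 9 comparisons from edgeR fits, on the TMM scale (black), by total miRNA counts (green) and by spike-in counts (orange). Filled points had an adjusted p under 0.05, and all of them are on the TMM scale.

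Within wild-type clones knockdown gave -0.50 ± 0.15 for mir-221 (SE, adjusted p = 0.0199 by edgeR) and -0.47 ± 0.18 for mir-222 (SE, adjusted p = 0.0454 by edgeR), where 10.4% of 613 rows were called lower (64 rows, against 27 with total miRNA and 11 with spike-in scaling). Both calls were lost without clone 55, 57 or 67 and on the other scales (total miRNA scaling gave -0.16 and -0.14, spike-in scaling 0.11 and 0.14). The mir-222 call was also lost without the clone block, at -0.42 (adjusted p = 0.134 by edgeR). Within deletion clones the values were -0.23 ± 0.099 (SE, adjusted p = 0.157 by edgeR) and -0.17 ± 0.11 (SE, adjusted p = 0.305 by edgeR), where 6% of 633 rows were called lower. The difference in response between genotypes was tested as an interaction in 1 fit over all clones, with its own scaling and 667 rows, so its values are not the plain differences of those just given. The interaction was 0.35 ± 0.16 for mir-221 (SE, adjusted p = 0.247 by edgeR) and 0.38 ± 0.22 for mir-222 (SE, adjusted p = 0.368 by edgeR). No row passed in that fit (0% of 667, with 127 at an unadjusted p under 0.05 and 16 called by DESeq2), so a difference in response between genotypes was not shown for the members. Under spike-in scaling the interaction had the opposite sign, at -0.054 and -0.026.

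The effect of the DGCR8 deletion with ERH present was read from the control arm, 4 clones against 4. The log2 fold change for mir-221 was -0.59 ± 0.21 (SE, adjusted p = 0.0493 by edgeR), and that for mir-222 was -0.49 ± 0.27 (SE, adjusted p = 0.192 by edgeR), and 7.09% of 536 rows were called lower. These were 38 rows, against 101 called higher. With total miRNA scaling 4 were called lower and 154 higher, and with spike-in scaling 0 and 134. In the same fit the blood marker mir-223 was higher in deletion clones, at 2.33 ± 0.74 (SE, adjusted p = 0.0381 by edgeR). The blood marker mir-142 was at 1.68 ± 0.60 (SE, adjusted p = 0.0557 by edgeR). The other blood markers, mir-451a and mir-150, were at -0.029 ± 0.55 and 0.018 ± 0.71 (SE, adjusted p = 0.977 and 0.987 by edgeR). The endothelial mir-126 was at -0.73 ± 0.26 (SE, adjusted p = 0.0519 by edgeR). Of the 11 markers tested there, 1 was called higher and 0 lower. The part of these markers in the mir-221 value was not tested. The genotypes overlapped for both members through clone 42. Without clone 42 the values were -0.80 and -0.84, and mir-222 then passed (adjusted p = 0.0234 by edgeR). The mir-221 call, near the threshold, was lost without clone 30, 34, 43, 52, 57 or 67 (adjusted p from 0.0827 to 0.167 by edgeR). By total miRNA counts the values were -0.18 and -0.060, and by spike-in -0.18 and -0.11, and none passed. Relative to spike-in RNA the exact test gave differences of -0.21 (95% interval -0.90 to 0.605) and -0.14 (95% interval -0.81 to 0.255), with exact permutation p = 0.429 and 0.629 (two-sided, 4 against 4 clones).

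Under ERH shRNAs the deletion gave -0.25 ± 0.25 for mir-221 (SE, adjusted p = 0.621 by edgeR) and -0.15 ± 0.29 for mir-222 (SE, adjusted p = 0.819 by edgeR). edgeR called 0% of 569 rows here, with 87 at an unadjusted p under 0.05, and DESeq2 called 8. Without clone 42 the values were -0.57 and -0.54. Without clone 34 or 52 the mir-222 value was 0.0051 or 0.051. Deletion clones with ERH shRNAs were also set against wild-type clones with control shRNAs, which enter the comparisons above too. There mir-221 was at -0.69 ± 0.23 (SE, adjusted p = 0.0288 by edgeR) and mir-222 at -0.55 ± 0.27 (SE, adjusted p = 0.115 by edgeR), where 16.5% of 553 rows were called lower (91 rows, against 24 with total miRNA and 20 with spike-in scaling). The mir-221 call was lost without clone 34, 43, 52, 57 or 67 (adjusted p from 0.0533 to 0.0589 by edgeR), by total miRNA counts (-0.20) and by spike-in (-0.11). The mir-222 value passed with DESeq2, at -0.79 (adjusted p = 0.0265), and without clone 42, at -0.88 (adjusted p = 0.0135 by edgeR), and was 0.036 under spike-in scaling.

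Single vectors were compared as a check of each arm. Control shRNA 2 against control shRNA 1 gave -0.053 ± 0.11 for mir-221 (SE, adjusted p = 0.926 by edgeR) and 0.043 ± 0.11 for mir-222 (SE, adjusted p = 0.957 by edgeR). ERH shRNA 2 against ERH shRNA 1 gave -0.20 ± 0.092 (SE, adjusted p = 0.683 by edgeR) and -0.22 ± 0.11 (SE, adjusted p = 0.690 by edgeR). edgeR called 0% of rows in each (571 and 578 tested, 48 and 37 at an unadjusted p under 0.05), and DESeq2 called 1 in each. Against control shRNA 1, ERH shRNA 1 gave -0.29 for mir-221 (adjusted p = 0.0376 by edgeR) and -0.19 for mir-222 (adjusted p = 0.222 by edgeR). Against control shRNA 2, ERH shRNA 2 gave -0.43 (adjusted p = 0.0537 by edgeR) and -0.44 (adjusted p = 0.0715 by edgeR). On the TMM scale each vector pair thus gave negative values, and 1 of these 4 passed. Relative to spike-in RNA the means of the 2 vector pairs went opposite ways. Mean log2 levels of mir-221 with ERH and control shRNA 1 were 2.30 against 1.94 in wild-type and 1.92 against 1.78 in deletion clones. With shRNA 2 they were 1.80 against 2.07 and 1.78 against 1.81. For mir-222 these were -0.40 against -0.78 and -0.60 against -0.92, then -0.79 against -0.60 and -0.87 against -0.74.

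The ratio of mir-221 to mir-222 needs no scaling between libraries and varied less than either level. Over the 32 libraries it lay between 4.56 and 7.22 counts of mir-221 per count of mir-222, a range of 1.58-fold. In TMM-scaled CPM the levels ranged 4.27-fold for mir-221 and 4.19-fold for mir-222. As shares of all miRNA counts they ranged less, 2.77-fold and 3.56-fold. In clone sums the log2 ratio under control shRNAs was 2.82 in clone 52, 2.76 in clone 55, 2.44 in clone 57 and 2.71 in clone 67, and 2.79, 2.67, 2.33 and 2.68 in deletion clones 30, 34, 42 and 43. Under ERH shRNAs the wild-type clones had 2.48, 2.68, 2.68 and 2.80, and the deletion clones 2.58, 2.61, 2.43 and 2.65. No condition stood apart from another.

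With ERH shRNAs the log2 ratio differed by -0.038 ± 0.18 (SD, n = 8), and 5 of the 8 clones were lower (exact sign-flip permutation test, two-sided, p = 0.570, adjusted p = 0.838). The 95% interval of the change ran from -0.20 to 0.098. Within wild-type clones the difference was -0.025 ± 0.25 (SD, n = 4) and within deletion clones -0.052 ± 0.13 (SD, n = 4), where 16 sign flips cannot give a p under 0.125. The difference between these was -0.027 (exact permutation p = 0.943, 95% interval -0.44 to 0.44). Deletion clones differed from wild type by -0.064 under control shRNAs (exact permutation p = 0.543, 95% interval -0.49 to 0.35) and by -0.091 under ERH shRNAs (exact permutation p = 0.314, 95% interval -0.37 to 0.165). Control shRNA 2 against 1, the background, gave -0.096 ± 0.14 (SD, n = 8, exact sign-flip permutation p = 0.0781). Relative to spike-in RNA, ERH shRNA 2 against 1 gave -0.33 for mir-222 (exact sign-flip permutation p = 0.0313, adjusted p = 0.688, 95% interval -0.62 to -0.065), the only interval of those computed that left out 0, and -0.32 for mir-221 (exact permutation p = 0.125, 95% interval -0.81 to 0.077). Each was lower in 6 of 8 clones. None of the 24 ratio and spike-in tests passed after adjustment, and these intervals do not show that the ratio was equal.

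**Figure D3:**
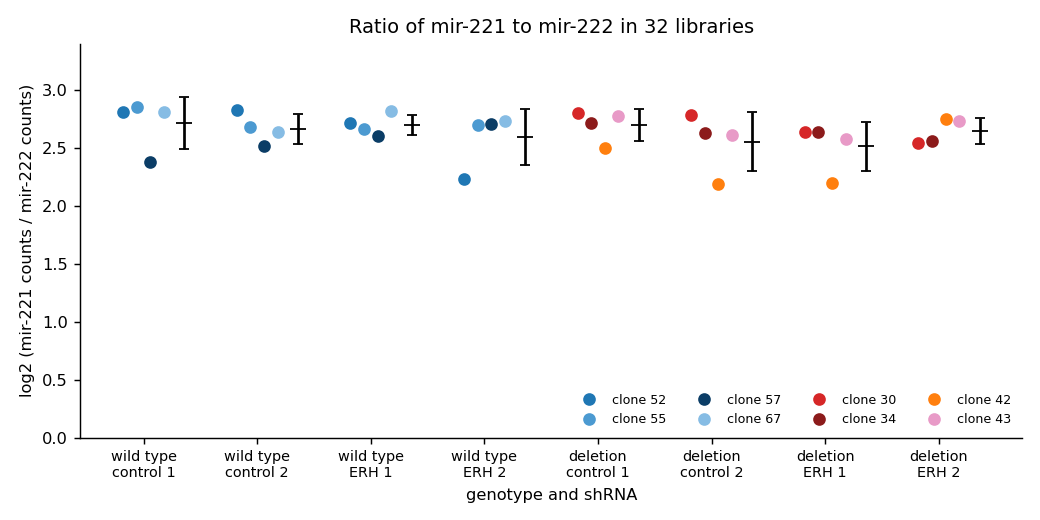
Log2 ratio of mir-221 to mir-222 counts in each of the 32 libraries, by genotype and shRNA, coloured by clone, with mean ± SD (n = 4) beside each group. Group means lie between 2.52 and 2.71, and the lowest single libraries belong to clones 42, 52 and 57.

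The members moved together from library to library. Over the 32 libraries their log2 CPM had a correlation of 0.95 (Pearson's r) or 0.94 (Spearman's rho). The libraries share clones and scaling, so no p is given. Among 257 rows with a mean of at least 100 counts, each member was the row most like the other, and the median r with all rows was 0.12 for mir-221 and 0.065 for mir-222. After subtracting the mean of each condition r was 0.94. Next in likeness to mir-221 were mir-10b (r = 0.80) and mir-24 (r = 0.79), and next to mir-222 were mir-10b (r = 0.79) and mir-181a (r = 0.77). The rows least like mir-221 were mir-629 (r = -0.78), mir-548aq (r = -0.75) and mir-676 (r = -0.73), and those least like mir-222 were mir-676 (r = -0.73), mir-548aq (r = -0.71) and mir-577 (r = -0.71).

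**Figure D4:**
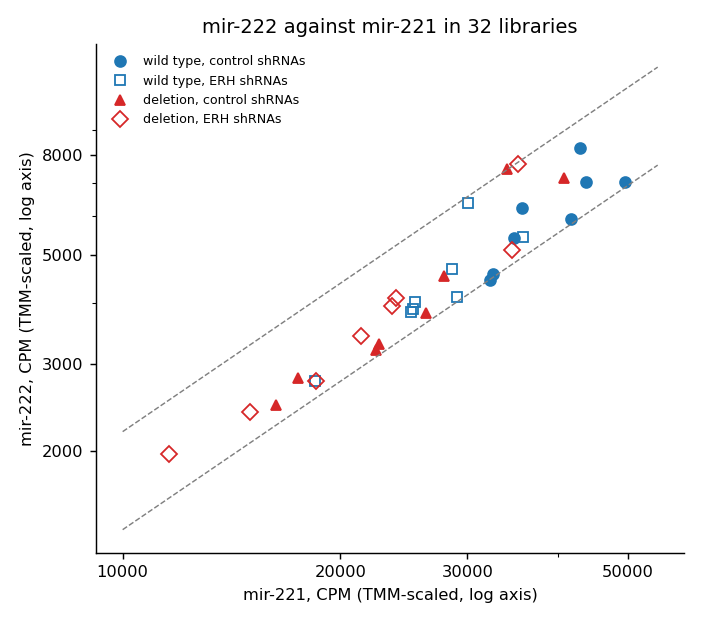
TMM-scaled CPM of mir-222 against mir-221 in the 32 libraries, both axes logarithmic, with symbols for genotype and shRNA arm. The dashed lines mark the lowest and highest observed ratios, 4.56 and 7.22, and the libraries run between them over a 4.27-fold range of mir-221.

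Other transcripts with neighbouring hairpins give the setting. Of 16 listed pairs, 11 had both rows at a mean of at least 100 counts, among them 3 with a row that pools several loci (mir-194, mir-30c and mir-16). Of their 22 rows, 17 were called lower under knockdown (against 16.5% of all rows), 0 higher (against 20.1%) and 5 not. The list was made with earlier results of these data known, so these counts are a description and not independent support. Among the 258 rows over the same mean count, 30.6% were called lower and 21.3% higher. The median log2 fold change was -0.40 in the 22 rows, against -0.15 in those 258 and 0.061 in all rows. The members' own values of -0.37 and -0.33 lay close to that median. Within pairs the log2 ratio differed with ERH shRNAs by a median size of 0.39, from 0.0089 for mir-23a and mir-27a to 1.56 for mir-192 and mir-194. The difference for mir-221 and mir-222 was smaller in size than that of 10 of the 11 pairs. The SD of the change between clones was 0.18 for these members. In the other pairs it ran from 0.17 for mir-195 and mir-497 to 0.79 for mir-200c and mir-141. A noisier pair can give a larger mean size, so the rank alone does not show an unusually stable ratio.

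In a test added after the values were seen, 3 pairs differed from mir-221 and mir-222 by an exact sign-flip permutation test of the within-clone difference. Their own values were -0.93 ± 0.22 for mir-425 and mir-191, -1.56 ± 0.34 for mir-192 and mir-194, and -0.78 ± 0.34 for mir-15b and mir-16 (SD, n = 8, lower in 8 of 8 clones each). The rows mir-194 and mir-16 each pool 2 loci, so the ratios with mir-192 and mir-15b are not purely within 1 transcript. The sign of a ratio depends on the order in which its pair was listed, and so do the tested difference and its p. The tested differences from mir-221 and mir-222 were -0.89 ± 0.38, -1.52 ± 0.40 and -0.74 ± 0.48 (SD, n = 8). Each had exact permutation p = 0.00781, the smallest possible, and adjusted p = 0.0286 over 11 pairs. For the other 8 pairs, in the order listed, the adjusted p lay between 0.0645 and 0.852, so a difference from mir-221 and mir-222 was not shown. Another listing order can give other p-values, so the split into 3 and 8 pairs holds only for the order used. Under the deletion with control shRNAs no pair had ratios without overlap between genotypes (0 of 11). The difference for mir-221 and mir-222 was smaller in size than that of 10 of 11, whose median was 0.19. The spread between clones was not taken into account in this rank.

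**Figure D5:**
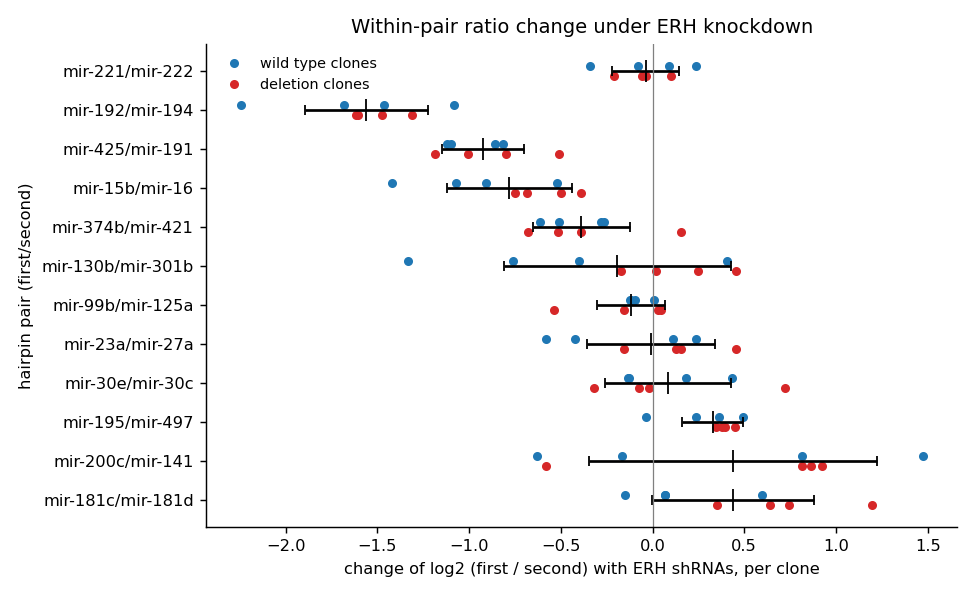
Change of the within-pair log2 ratio with ERH shRNAs in each clone for mir-221/mir-222 (top) and 11 other pairs, with black marks for mean ± SD (n = 8). The mir-221/mir-222 clones scatter around 0, while all 8 clones are below 0 for mir-192/mir-194, mir-425/mir-191 and mir-15b/mir-16. The rows mir-194, mir-16 and mir-30c each pool 2 loci.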

How the data were processed

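Small RNA libraries were made with the QIAseq miRNA kit from 100 ng of a mix of 400 ng total RNA and 4 spike-in RNAs, per the labels' protocols. The authors deposited counts per miRNA precursor and per spike-in. The aligner, the genome build and any use of molecular identifiers are not given in the sources used here, and SAMtools is named in the submitters' processing notes. Identifiers unused would leave amplification in the counts. Both vectors of an arm were summed per clone. Rows were kept with filterByExpr, scaled by TMM and tested with edgeR 4.0.16 (quasi-likelihood, R 4.3.3) with clone as a block for knockdown, and p-values were Benjamini-Hochberg adjusted over all rows kept, with a threshold of 0.05. The 2 arms of a clone deviated together (r 0.42 to 0.86 over 314 miRNAs), and the pairing comes from the clone named in the labels. DESeq2 1.42.0 was an alternative. The fit was tested on simulated data. Ratios were tested by exact permutation over clones, two-sided, and 95% intervals by inverting that test. RNAfold 2.7.2 gave the folds. Likeness was Pearson's r over log2 CPM with a prior count of 2, and the 3 rows nearest to and farthest from each member were named. Libraries of a group differed beyond sampling noise (at least 75.4 chi-square per degree of freedom over 48 pairs). The members and lists were chosen with earlier results of these data known.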

Additional observations from a re-analysis of the deposited data

Results flagged for a closer look

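Among 44 sets of 4 clones examined, 6 had 1 value far from the other 3 by Dixon's criterion for outliers. Chance flags about 1 in 20 such sets when they are independent. These sets share libraries and the members move together, so an excess over chance cannot be read from the count. In clone 52 under ERH shRNAs mir-221 was at 34167 CPM against 24860 to 26010 in the other wild-type clones, and mir-222 at 6121 CPM against 3735 to 3939. In the ERH shRNA 2 library of clone 52 the log2 ratio of mir-221 to mir-222 was 2.23, against 2.70 to 2.73 in the other 3 clones. The control shRNA 1 library of clone 57 had a log2 ratio of 2.38 against 2.81 to 2.85, and the ERH shRNA 1 library of clone 42 had 2.20 against 2.58 to 2.64. In clone 55 under control shRNAs the log2 ratio of mir-222 to spike-in was -0.52, against -0.75 to -0.74 in the other wild-type clones.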

How the results depend on the processing

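With spike-in scaling mir-221 changed sign for knockdown in all clones (0.088), in wild-type clones (0.11) and in deletion clones (0.061), for the interaction (-0.054) and for control shRNA 2 against 1 (0.083). Its calls were lost for the deletion under control shRNAs (-0.18) and for deletion with ERH shRNAs against wild type with control shRNAs (-0.11). The row mir-222 changed sign for the same 3 knockdown comparisons (0.13, 0.14 and 0.11), the interaction (-0.026) and deletion with ERH shRNAs against wild type with control shRNAs (0.036). With total miRNA scaling mir-221 lost its calls for knockdown in all clones (-0.099) and wild-type clones (-0.16), the deletion under control shRNAs (-0.18) and deletion with ERH shRNAs against wild type (-0.20). There mir-222 lost its calls for knockdown in all clones (-0.061) and wild-type clones (-0.14), and changed sign for knockdown in deletion clones (0.011) and the deletion under ERH shRNAs (0.033).

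Without a filter on low counts, mir-222 lost its calls for knockdown in all clones (-0.27) and wild-type clones (-0.39), mir-221 lost those for knockdown in wild-type clones (-0.41) and the deletion under control shRNAs (-0.58), and mir-222 passed for deletion with ERH shRNAs against wild type (-0.58). With a mean of at least 100 counts, calls were lost for mir-222 under knockdown in all clones (-0.21) and wild-type clones (-0.42). The same filter ended the mir-221 calls for the deletion under control shRNAs (-0.44) and deletion with ERH shRNAs against wild type (-0.56). With no replicate block for the clone, the knockdown values in all clones were -0.37 for mir-221 and -0.33 for mir-222, and that of mir-222 in wild-type clones was -0.42, and none passed. The block changed no other call of the members. DESeq2 (-0.79) and libraries taken as single samples (-0.55) called mir-222 for deletion with ERH shRNAs against wild type. Single libraries share a clone in pairs, so p-values and counts of calls from that setting treat 4 clones as 8 samples and are too favourable. The cause of these shifts was not tested.

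With shRNA 1 of each arm alone, mir-222 under knockdown was at -0.19 in all clones (not called) and 0.047 in deletion clones. With shRNA 2 alone, mir-221 was not called for knockdown in all clones (-0.43) and wild-type clones (-0.65), the deletion under control shRNAs (-0.51) and deletion with ERH shRNAs against wild type (-0.68), nor mir-222 for knockdown in all clones (-0.44) and wild-type clones (-0.59). With shRNA 2 alone the log2 ratio of the members changed sign for knockdown in all clones (0.010) and deletion clones (0.092), the deletion under ERH shRNAs (0.053) and the interaction (0.16). Relative to spike-in RNA, shRNA 2 alone gave -0.15, -0.27 and -0.037 for mir-221 and -0.16, -0.19 and -0.13 for mir-222 under knockdown in all, wild-type and deletion clones, with interactions of 0.23 and 0.065. With the mean of the log2 ratios of an arm's libraries the spike-in interactions were 0.0012 for mir-221 and 0.0043 for mir-222.

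Leaving out each clone in turn moved mir-221 between -0.54 and -0.41 for knockdown in wild-type clones, -0.80 and -0.44 for the deletion under control shRNAs, -0.95 and -0.51 for deletion with ERH shRNAs against wild type, and -0.095 and 0.025 for control shRNA 2 against 1. For mir-222 the ranges were -0.40 to -0.27 for knockdown in all clones, -0.62 to -0.34 in wild-type clones, -0.84 to -0.32 for the deletion under control shRNAs and -0.54 to 0.051 under ERH shRNAs. They were -0.88 to -0.36 for deletion with ERH shRNAs against wild type and -0.0084 to 0.14 for control shRNA 2 against 1. The log2 ratio ranged from -0.077 to 0.0047 for knockdown in all clones, -0.11 to 0.080 in wild-type clones, -0.10 to 0.00065 in deletion clones, -0.14 to 0.033 for the deletion under control shRNAs, -0.13 to 0.059 for the interaction and -0.065 to 0.083 for ERH shRNA 2 against 1. Relative to spike-in RNA, mir-221 ranged from -0.095 to 0.16 for knockdown in deletion clones and -0.21 to 0.048 for the interaction. There mir-222 ranged from -0.26 to 0.025 for the deletion under control shRNAs, -0.37 to 0.029 under ERH shRNAs and -0.13 to 0.026 for the interaction.

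Counts of called rows moved by over 1.5 times in several settings. For knockdown in all clones 244 rows were called, against 148 with a mean of at least 100 counts, 37 without the block, 117 with shRNA 2 alone and 159 without clone 55. In wild-type clones 192 were called, against 124, 94, 20 and 126 in those settings and 112 without clone 57. In deletion clones 65 were called, against 102 with spike-in scaling, 109 with total miRNA scaling, 13 without the block, 19 with shRNA 2 alone, 104 with single libraries, and 30, 119 and 38 without clone 30, 34 and 42. For the deletion under control shRNAs 139 were called, against 76 with a mean of at least 100 counts, 35 with shRNA 2 alone, 223 with single libraries and 83 without clone 34. For deletion with ERH shRNAs against wild type 259 were called, against 134 with a mean of at least 100 counts. Where edgeR called 0 rows, single libraries gave 55 for the deletion under ERH shRNAs and 52 for the interaction, and other settings gave at most 8 and 35. Depth did not limit the members' counts.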
